A study of Mus musculus with 12 samples.

Results

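The genes of cholesterol and fatty acid synthesis were followed in mouse H2K myogenic progenitors as they left proliferation and formed myotubes, with and without the inner nuclear membrane protein emerin. The set was named by symbol, with earlier results of these data known. It held 35 symbols for 34 genes, since Msmo1 and Sc4mol are names of the same gene, which is listed as Sc4mol. Of the 34 genes, 31 had a usable entry at every stage and a mean of at least 1 FPKM (fragments per kilobase of transcript, scaled to the number of mapped fragments), among 11068 genes that met both conditions. Idi1 had no usable entry in proliferating cells, Acat2 none at day 3, and Fads1 none at days 1, 2 and 4.

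Total RNA was sequenced from wildtype and emerin-null H2K cells at 6 stages, which gave 12 samples. H2K cells carry a temperature-sensitive large T antigen driven by an interferon-responsive promoter, in both genotypes. Proliferating cells grew in serum-rich medium with chick embryo extract and 20 units/ml γ-interferon. Day 0 cells had spent a day at high density in that medium. Cells of days 1, 2, 3 and 4 were in low-serum medium with horse serum, for which no interferon is listed. The published methods also describe a change of temperature and CO2 at this switch. These changes came together after day 0 and cannot be told apart here. Each sample was 1 value per gene that combined 3 culture plates, so no replicate error could be given for a single value, the sequencing depth is unknown, and each genotype stands for a single H2K background rather than for several lines. The lines differed in emerin as labelled: Emd was listed at 14.9, 62.1, 50.9, 13.6, 29.6 and 31.8 FPKM in wildtype cells in the order proliferating and then days 0, 1, 2, 3 and 4, and at 0.810, 0.0859, 0, 3.10, 0.0421 and 0.0735 FPKM in emerin-null cells (log2 -6.46, SE 0.95, adjusted p = 0.00574, limma). The same order of stages holds for every series of 6 values that follows.

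Cholesterol is built from acetyl-CoA by way of mevalonate, farnesyl pyrophosphate and squalene, and fatty acids are built from the same acetyl-CoA by carboxylation, chain building, elongation and desaturation. Many of these enzymes are switched on together by the sterol regulatory element binding proteins, which Scap escorts out of the endoplasmic reticulum when membrane sterol is low and which Insig proteins hold back when it is high. In muscle, myoblast fusion and the growth of internal membranes draw on both lipids.

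The cells carried muscle markers at every stage. Myog, a factor that drives differentiation, was 744, 198, 1370.2, 731, 346 and 444 FPKM in wildtype and 806, 186, 1433, 748, 322 and 536 FPKM in emerin-null cells, so the proliferating samples of both genotypes held more of it than the day 0 samples. The summed level of 5 cell cycle genes was 389 and 398 FPKM in proliferating wildtype and emerin-null cells, and 6.95 and 23.7 FPKM at day 4, where 4 of them were listed. Of 9 adipocyte genes, which share much of this lipid program, Adipoq, Plin1, Cidec and Lep were not listed at any stage, Fabp4 was below 1 FPKM where listed, and the summed level was between 1.62 and 24.2 FPKM in wildtype and between 1.06 and 12.3 FPKM in emerin-null cells, most of it Cebpa. Of 5 fibroblast genes, Lum was not listed and Pdgfra stayed below 1 FPKM, while Col1a1, a collagen chain, made up most of a sum between 10.2 and 45.9 FPKM in wildtype and between 5.89 and 57.9 FPKM in emerin-null cells. Of 4 macrophage genes, Ptprc, Csf1r and Adgre1 were not listed, and Cd68 was read only in an entry with Eif4a1, between 12.5 and 118 FPKM. The 4 endothelial genes summed to at most 1.33 FPKM.

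Because transcripts were assembled anew at each stage, some entries joined neighbouring genes or covered only a piece of a gene. At all 6 stages, 17 of the 31 genes stood alone at their locus with an entry over at least 50% of the annotated gene, and these are called separately assembled: Hmgcs1, Mvd, Mvk, Lss, Dhcr7, Sc5d, Sc4mol, Hsd17b7, Ebp, Insig1, Stard4, Fasn, Acly, Scd1, Elovl5, Lpin1 and Aacs. The other 14 are marked where they are described, and for them a change between stages can reflect a change of entry.

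The promoters of the genes shared short sequence motifs. RefSeq (GRCm38.p6) gave a promoter, from 250 bases before to 50 bases after the start, for 27 of the 34 genes. A CCAAT box, the site letters of NF-Y, a factor known to work beside the sterol regulatory element binding proteins, stood on either strand in 20 of the 27, as CCAAT or its reverse complement ATTGG, and in 41.1% of 27025 genes. A GC box (GGGCGG on either strand) was present in 20 of the 27 and in 38.2% of genes, and an E-box (CACGTG) in 6 of the 27 and in 8.09% of genes. The sterol regulatory element TCACNCCAC, on either strand, occurred only in Hmgcs1, with its first base 137 bases before the start, and in 1.44% of genes. The 6 promoters with 3 or more CCAAT boxes are shown for the 200 bases before the start, 5′ to 3′ along the gene, with the boxes on both strands and the sterol regulatory element in capitals. They lie at chr13:119690151-119690350 (plus strand), chr5:114444069-114444268 (plus), chr8:64733579-64733778 (minus), chr1:169969206-169969405 (minus), chrX:72918321-72918520 (plus) and chr11:120824548-120824747 (minus).
Hmgcs1: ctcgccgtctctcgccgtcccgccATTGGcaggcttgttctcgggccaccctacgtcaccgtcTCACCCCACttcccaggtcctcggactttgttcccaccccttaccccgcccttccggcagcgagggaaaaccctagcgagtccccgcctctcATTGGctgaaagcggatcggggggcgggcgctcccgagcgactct
Mvk: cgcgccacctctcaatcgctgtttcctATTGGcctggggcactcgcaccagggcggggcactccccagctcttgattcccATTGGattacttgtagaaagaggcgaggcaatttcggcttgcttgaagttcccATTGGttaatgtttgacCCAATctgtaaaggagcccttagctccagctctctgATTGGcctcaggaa
Msmo1: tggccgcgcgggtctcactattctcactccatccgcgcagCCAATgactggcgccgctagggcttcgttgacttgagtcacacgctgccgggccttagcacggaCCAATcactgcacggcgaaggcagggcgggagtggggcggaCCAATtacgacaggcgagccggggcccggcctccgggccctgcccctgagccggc
Hsd17b7: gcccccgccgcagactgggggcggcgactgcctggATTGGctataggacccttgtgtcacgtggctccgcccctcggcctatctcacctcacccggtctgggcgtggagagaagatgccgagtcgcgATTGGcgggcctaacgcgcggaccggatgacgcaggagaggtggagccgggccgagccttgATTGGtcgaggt
Nsdhl: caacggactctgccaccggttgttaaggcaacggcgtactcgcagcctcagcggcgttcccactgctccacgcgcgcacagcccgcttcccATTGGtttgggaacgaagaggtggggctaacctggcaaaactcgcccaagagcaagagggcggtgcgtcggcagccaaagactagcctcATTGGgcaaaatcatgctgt
Fasn: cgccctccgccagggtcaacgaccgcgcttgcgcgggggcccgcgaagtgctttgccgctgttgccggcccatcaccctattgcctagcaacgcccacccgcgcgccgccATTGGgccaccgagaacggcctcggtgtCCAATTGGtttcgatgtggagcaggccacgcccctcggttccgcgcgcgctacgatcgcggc
In the Fasn promoter a CCAAT and an ATTGG overlap and form a single run of capitals. Hmgcs1 and Nsdhl each hold 4 boxes in the 300 bases, of which 2 lie in the stretch shown, and Mvk holds 5. A match describes letters in this window and is not a measured binding site.

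The question of the first comparison was how the levels of these genes differ as cells enter differentiation. Between day 0 and day 1, 18 of the 31 genes were at least 2-fold higher in both genotypes and none was 2-fold lower in both, where 10.8% of all 11068 genes were at least 2-fold higher and 11.4% at least 2-fold lower in both. The median change of the 31 genes was 1.20 on the log2 scale in wildtype and 1.21 in emerin-null cells, against -0.06 and -0.08 for all genes. The 18 comprised all 5 mevalonate genes with a value at every stage, 8 of 11 sterol genes, 2 of 5 control genes and 3 of 10 fatty acid genes. Among the separately assembled genes, 13 of 17 met the 2-fold mark. The tables of the stages were scaled separately, so changes between stages are descriptions and were not tested.

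**Figure D1:**
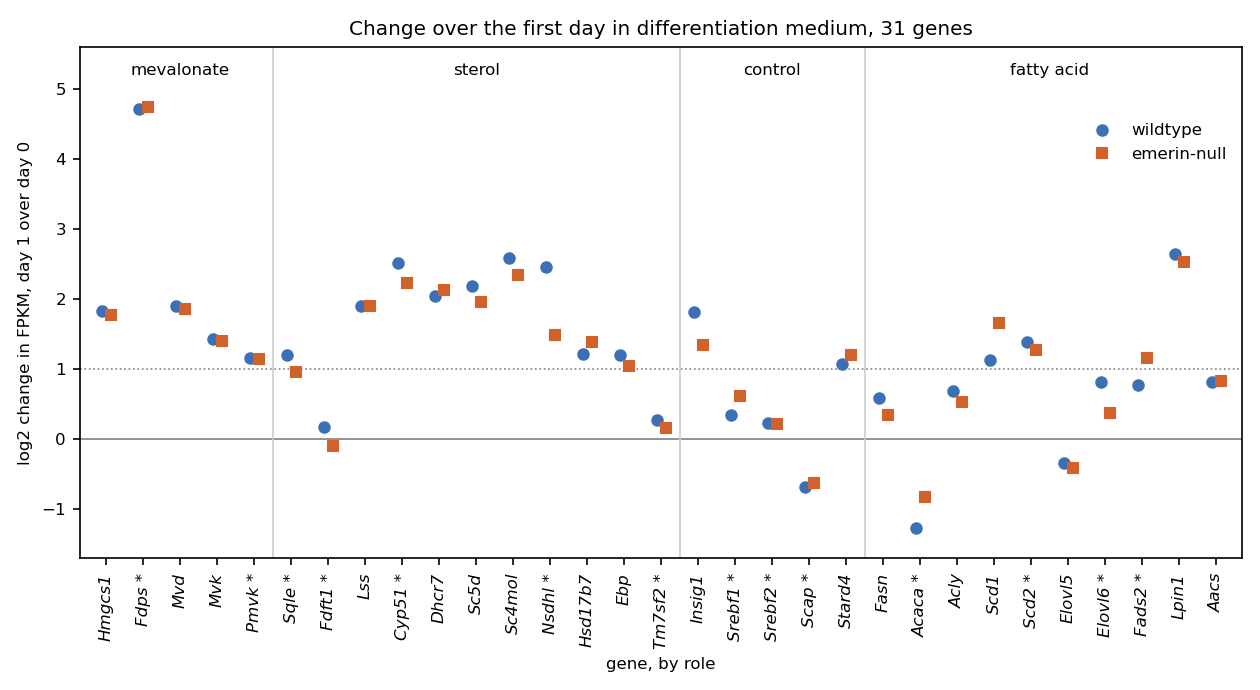
Change in level from day 0 to day 1 for the 31 genes with a value at every stage, as log2 of FPKM + 0.1, day 1 over day 0 (vertical axis), with genes ordered by role along the horizontal axis. Circles are wildtype and squares emerin-null cells, the dotted line marks 2-fold, and an asterisk marks the 14 genes that were not separately assembled at every stage; most mevalonate and sterol genes lie above the dotted line in both genotypes, while Elovl5, Scap and Acaca lie below 0.

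In the mevalonate branch, Hmgcs1, which condenses acetoacetyl-CoA with acetyl-CoA, was 30.4, 25.1, 89.4, 59.2, 65.9 and 54.1 FPKM in wildtype cells and 53.0, 27.2, 93.1, 64.8, 58.6 and 43.5 FPKM in emerin-null cells. Every sample of days 1, 2 and 3 was above every growth-medium sample of the gene, and the day 1 value was 3.55-fold in wildtype and 3.41-fold in emerin-null cells that of day 0. Mvk, the mevalonate kinase, was 2.70-fold and 2.65-fold higher at day 1 than at day 0 in wildtype and emerin-null cells, and Mvd, the decarboxylase that makes isopentenyl pyrophosphate, 3.75-fold and 3.63-fold higher. Pmvk, the kinase between them, was 2.24-fold and 2.22-fold higher, and its entry was joined with Pbxip1 at day 3.

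Fdps, which makes farnesyl pyrophosphate, had the largest difference of the branch, with 11.1, 4.39, 118, 174, 138 and 73.3 FPKM in wildtype and 11.7, 3.94, 108, 160.1, 139 and 54.6 FPKM in emerin-null cells. Its entry was joined with Rusc1 in proliferating cells and covered 31.8% of the gene at day 1, so the 26.2-fold and 26.7-fold step from day 0 to day 1 compares entries of different extent, whereas the entries of days 2, 3 and 4 stood alone over nearly the whole gene. Idi1, which isomerises isopentenyl pyrophosphate, was listed from day 0 on at 4.08, 24.4, 0.340, 1.90 and 0.223 FPKM in wildtype and 4.38, 22.4, 0.344, 0.846 and 0.384 FPKM in emerin-null cells, highest at day 1 in both, on fragments that covered between 2.82% and 68.6% of the gene. Acat2, the cytosolic thiolase at the head of the branch, was read mostly in an entry joined with Tcp1, Acat3 and Mrpl18, at 229 FPKM or more, and alone over the gene only at day 1, at 45.6 FPKM in wildtype and 45.5 FPKM in emerin-null cells.

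Squalene epoxidase, Sqle, a rate-limiting enzyme of the sterol branch, was 21.3, 21.0, 48.4, 22.9, 16.8 and 21.9 FPKM in wildtype and 30.6, 22.4, 43.9, 27.1, 18.1 and 28.7 FPKM in emerin-null cells. It was highest at day 1 in both and 2.30-fold and 1.95-fold above day 0, which fell short of 2-fold in emerin-null cells, and its entry was joined with Nsmce2 in proliferating cells and at days 1 and 3. Lss, which closes squalene epoxide into lanosterol, went from 6.94 FPKM at day 0 to 26.1 FPKM at day 1 in wildtype and from 5.59 to 21.2 FPKM in emerin-null cells, and over the 6 stages it was 6.02, 6.94, 26.1, 13.2, 9.30 and 6.99 FPKM in wildtype and 9.67, 5.59, 21.2, 14.6, 8.25 and 5.96 FPKM in emerin-null cells. The day 1 samples of both genotypes stood above all others, and by day 4 Lss was back within 0.1 of its day 0 level on the log2 scale (log2 change 0.01 and 0.09 in wildtype and emerin-null cells).

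The demethylation steps after lanosterol followed, and Sc4mol and Cyp51 had the largest day 1 steps of the sterol branch in both genotypes. Msmo1, listed as Sc4mol, the methylsterol oxidase, was 21.3, 21.7, 131, 74.4, 61.0 and 44.2 FPKM in wildtype and 34.2, 22.6, 115, 74.6, 66.0 and 50.8 FPKM in emerin-null cells, with day 1 6.0-fold in wildtype and 5.08-fold in emerin-null cells above day 0. Cyp51, the lanosterol demethylase, was 17.3, 17.6, 101, 65.3, 42.0 and 48.1 FPKM in wildtype and 28.7, 19.1, 89.6, 65.4, 37.1 and 39.9 FPKM in emerin-null cells, 5.73-fold and 4.68-fold above day 0 at day 1, with Akap9 in its entry at 5 of 6 stages. Nsdhl, the dehydrogenase that acts with Msmo1, was 14.2, 13.2, 73.1, 56.2, 67.9 and 46.8 FPKM in wildtype and 13.4, 15.1, 42.7, 41.5, 46.8 and 38.4 FPKM in emerin-null cells, and its step at day 1 was 5.50-fold in wildtype and 2.81-fold in emerin-null cells, with Cetn2 in the entry at 4 of 6 stages. All 3 were higher in every sample of days 1 to 4 than in the day 0 samples.

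Sc5d, the sterol desaturase near the end of the route, was 3.17, 3.72, 17.3, 13.9, 12.6 and 10.7 FPKM in wildtype and 5.12, 3.67, 14.5, 11.9, 11.3 and 9.85 FPKM in emerin-null cells. The samples of days 1 to 4 lay between 9.85 and 17.3 FPKM, above the growth-medium samples at 3.17 to 5.12 FPKM. Dhcr7, the last reductase of the route, followed another course, at 11.1, 10.7, 44.3, 64.0, 101 and 124 FPKM in wildtype and 11.2, 8.43, 37.2, 57.1, 77.0 and 80.2 FPKM in emerin-null cells. It was higher at each day than at the day before from day 0 to day 4 in both genotypes, so that day 4 stood 3.52 and 3.24 above day 0 on the log2 scale.

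Hsd17b7, the ketosteroid reductase of the pathway, was 2.33-fold and 2.61-fold higher at day 1 than at day 0 in wildtype and emerin-null cells, and Ebp, the sterol isomerase, 2.31-fold and 2.07-fold higher. Fdft1, the squalene synthase, was 183, 149, 169, 194, 188 and 38.1 FPKM in wildtype and 157, 128, 119.8, 124, 148 and 33.6 FPKM in emerin-null cells, but Ctsb, the abundant lysosomal protease next to it, was part of the entry at all 6 stages. Tm7sf2, a sterol reductase in a dense cluster of genes, was 33.4, 5.39, 6.54, 5.82, 5.78 and 11.5 FPKM in wildtype and 27.8, 5.02, 5.64, 5.39, 4.84 and 10.2 FPKM in emerin-null cells, and the entry of the proliferating cells joined it with 7 neighbours. Neither of these last genes gave a level of its own.

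**Figure D2:**
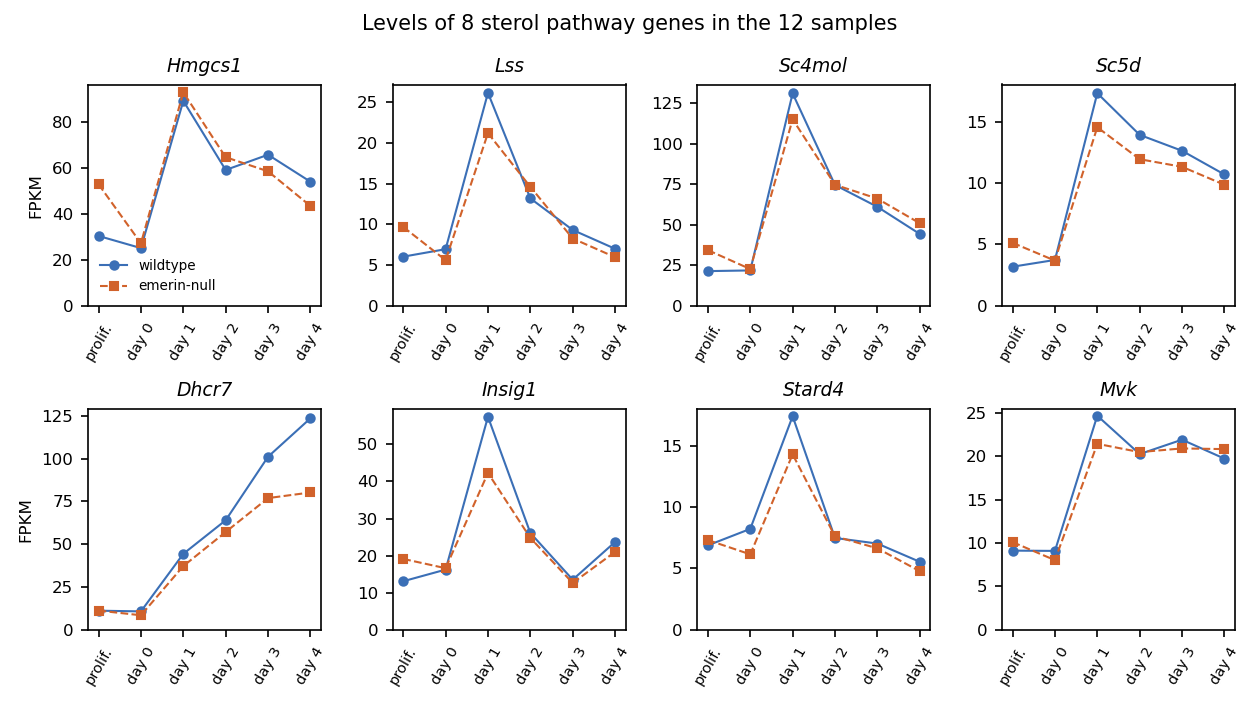
FPKM (vertical axes, from 0) of 8 separately assembled sterol pathway genes at the 6 stages (horizontal axes), with circles for wildtype and squares for emerin-null cells, 1 value per sample. Hmgcs1, Lss, Sc4mol, Sc5d, Insig1, Stard4 and Mvk were highest at day 1 in both genotypes, and Dhcr7 at day 4.

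Of the control genes, Insig1, which holds the Scap complex in the endoplasmic reticulum and is itself a target of the pathway, was 13.1, 16.2, 57.5, 26.1, 13.5 and 23.7 FPKM in wildtype and 19.1, 16.6, 42.3, 24.8, 12.6 and 21.0 FPKM in emerin-null cells. Its day 1 value was 3.53-fold in wildtype and 2.54-fold in emerin-null cells that of day 0. Stard4, a carrier that moves cholesterol between membranes, was 6.89, 8.23, 17.4, 7.49, 7.03 and 5.54 FPKM in wildtype and 7.32, 6.15, 14.3, 7.63, 6.65 and 4.78 FPKM in emerin-null cells, 2.10-fold and 2.31-fold higher at day 1 than at day 0. Both genes stood highest at day 1 in each genotype, and at day 4 Stard4 was below its day 0 level.

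Among the transcription factors, Srebf2, whose entry stood alone at days 0 and 1, did not share this step. Srebf2, which mainly drives cholesterol genes, was 59.1, 57.9, 68.3, 49.7, 34.9 and 33.8 FPKM in wildtype and 64.5, 54.5, 63.7, 55.0, 38.5 and 40.8 FPKM in emerin-null cells and differed 1.18-fold and 1.17-fold from day 0 to day 1. Srebf1, which mainly drives fatty acid genes, was 17.5, 23.5, 29.8, 37.0, 33.5 and 29.8 FPKM in wildtype and 17.6, 20.3, 31.3, 42.2, 34.8 and 26.1 FPKM in emerin-null cells, highest at day 2 in both, in an entry joined with Rai1 at every stage. Scap, the escort protein, was 15.9, 32.9, 20.5, 12.6, 8.16 and 11.9 FPKM in wildtype and 12.6, 26.9, 17.3, 12.1, 7.59 and 12.1 FPKM in emerin-null cells, and its entry included Ptpn23 at 4 of 6 stages but not at days 0 and 4. For these 3 genes the change from day 0 to day 1 was under 2-fold in both genotypes. The Srebf1 entry covered 94.6% of the gene at day 0 and 48.4% at day 1, and Ptpn23 was in the Scap entry at day 1. For Srebf1 and Scap the step therefore compares unlike entries.

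In the fatty acid branch the first enzymes differed less between day 0 and day 1. Fasn, the fatty acid synthase, was 36.9, 49.1, 74.2, 24.0, 19.6 and 16.1 FPKM in wildtype and 45.0, 48.4, 61.5, 26.6, 18.2 and 16.1 FPKM in emerin-null cells, 1.51-fold and 1.27-fold higher at day 1 than at day 0. Its highest samples were those of day 1 and its 6 lowest those of days 2, 3 and 4. Acly, which makes cytosolic acetyl-CoA from citrate, was 1.61-fold and 1.45-fold higher at day 1 than at day 0, and Aacs, which activates acetoacetate for lipid synthesis, 1.76-fold and 1.78-fold higher.

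Acaca, the acetyl-CoA carboxylase that commits carbon to fatty acids, was split into 13 or 14 small entries per stage, the one kept covered at most 0.06% of the gene, and its 6.11, 13.3, 5.46, 7.54, 8.95 and 5.52 FPKM in wildtype and 17.0, 18.6, 10.4, 9.65, 8.30 and 14.9 FPKM in emerin-null cells do not follow 1 piece of the transcript through the stages. Elovl5, which elongates polyunsaturated chains, was lower in every sample of days 1 to 4 than in the growth-medium samples, and its day 4 level stood -1.64 and -1.33 from day 0 on the log2 scale in wildtype and emerin-null cells. Fads2, a desaturase of polyunsaturated chains, was 19.7, 77.3, 132, 139, 186 and 129.7 FPKM in wildtype and 24.3, 49.9, 112, 137, 179 and 137 FPKM in emerin-null cells, and shared its entry with Fads3 from day 0 on, while Fads1, its partner desaturase, had values of its own only in proliferating cells, at 35.2 FPKM in wildtype and 29.5 FPKM in emerin-null cells.

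The stearoyl-CoA desaturases, which make monounsaturated chains, were highest after day 1. For Scd1 this was day 4 in both genotypes, and for Scd2 day 3 in wildtype and day 2 in emerin-null cells. Scd1 was 22.9, 27.7, 60.8, 77.9, 127 and 187 FPKM in wildtype and 20.8, 14.3, 45.6, 77.2, 102 and 125 FPKM in emerin-null cells, and stood 2.75 and 3.12 above day 0 at day 4 on the log2 scale. Scd2, whose entry included the neighbouring Scd3, was 94.4, 128, 333, 432, 538 and 496 FPKM in wildtype and 149.5, 139, 336, 463, 444 and 319 FPKM in emerin-null cells. All samples of days 1 to 4 lay above all growth-medium samples for both genes. Lpin1, a phosphatidate phosphatase that also acts in the nucleus, was 2.06, 1.70, 11.2, 16.5, 6.53 and 9.24 FPKM in wildtype and 1.71, 1.33, 8.10, 21.6, 4.62 and 6.86 FPKM in emerin-null cells, 6.26-fold and 5.75-fold higher at day 1 than at day 0 and highest at day 2 in both genotypes.

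**Figure D3:**
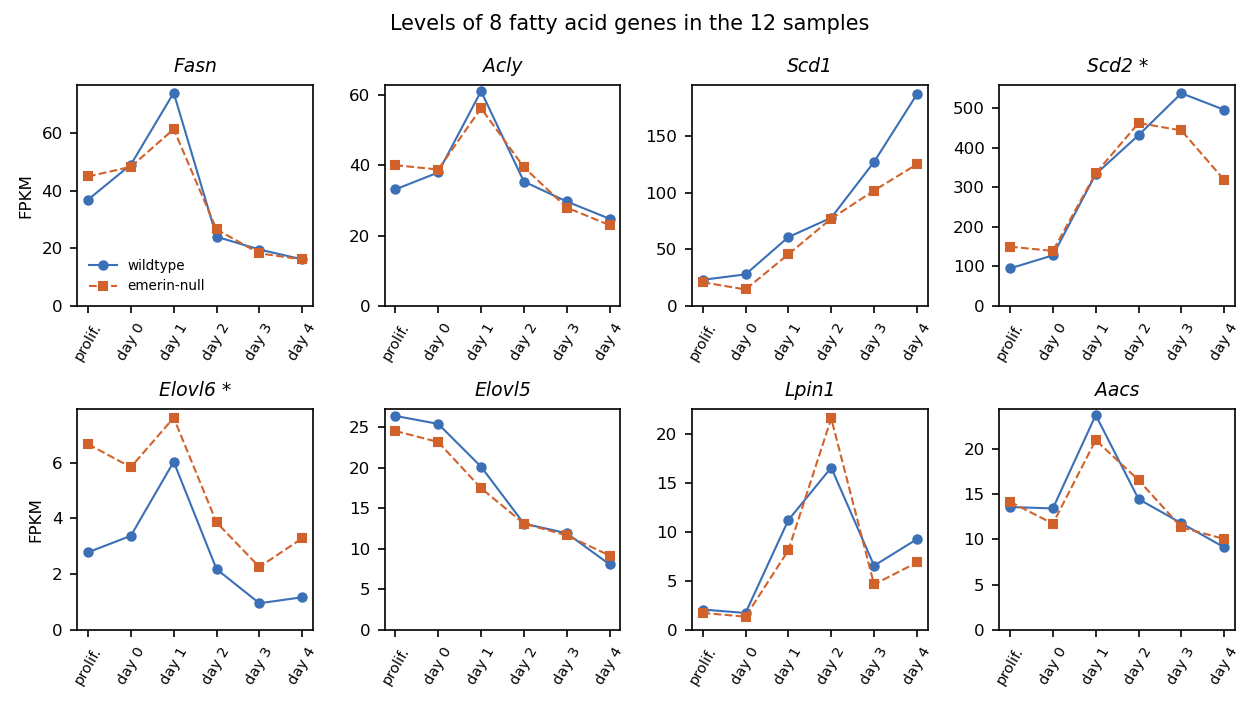
FPKM (vertical axes, from 0) of 8 fatty acid genes at the 6 stages (horizontal axes), with circles for wildtype and squares for emerin-null cells, 1 value per sample and an asterisk for genes not separately assembled at every stage. Fasn, Acly and Aacs were highest at day 1, Scd1 was highest at day 4, Elovl5 was lower at each day than at the stage before, and the emerin-null values of Elovl6 lay above the wildtype values at all 6 stages.

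After day 1 the genes parted into courses, described here for the 17 separately assembled ones. Lss, Insig1, Stard4, Hsd17b7, Fasn, Acly and Aacs were highest at day 1 in both genotypes and no more than 0.59 above day 0 at day 4 on the log2 scale, the lowest being Fasn at -1.60 and -1.58 on the log2 scale in wildtype and emerin-null cells. Hmgcs1, Mvd, Mvk, Sc5d, Sc4mol and Ebp stayed above day 0 at day 4, from 1.02 for Sc4mol to 1.5 for Sc5d in wildtype cells and from 0.67 for Hmgcs1 to 1.45 for Ebp in emerin-null cells. Dhcr7 and Scd1 were highest at day 4, Lpin1 at day 2, and Elovl5 in proliferating cells. Day 1 was the highest stage for 12 of the 17 in wildtype and 11 of the 17 in emerin-null cells.

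The other steps between stages involved few of the genes. From day 1 to day 2 none of the 31 was at least 2-fold higher and 1, Fasn, at least 2-fold lower in both genotypes, where 7.17% of all genes were higher and 11.6% lower. All genes together had medians of -0.19 (wildtype) and -0.14 (emerin-null) over that step. In median-ratio scaling each sample was divided by its median ratio to the geometric mean of all samples. With it the calls over all genes went from 794 higher and 1285 lower to 997 higher and 1025 lower, while Fasn stayed lower. From day 2 to day 3 the single gene was Lpin1, lower in both, with 6.82% of all genes higher and 6.22% lower, and from day 3 to day 4 it was Fdft1 with its neighbour Ctsb, lower in both, with 5.99% of all genes higher and 5.57% lower. From proliferating cells to day 0, Scap and Fads2 were higher and Fdps and Tm7sf2 lower, with 5.74% of all genes higher and 5.44% lower, and each of these 4 had a different set of genes in its entry at the 2 stages.

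Lists of related lipid genes were read over the step from day 0 to day 1 in both genotypes. Of 12 further sterol genes, some in joined entries, 3 were 2-fold higher and 1 lower. Their log2 medians were 0.88 (wildtype) and 0.81 (emerin-null), against -0.06 and -0.08 for all genes. Of 10 fatty acid oxidation genes, 1 was 2-fold higher and 1 lower, a share near the 10.8% and 11.4% of all genes, with log2 medians of 0.18 (wildtype) and 0.23 (emerin-null). Among 12 further genes of fatty acid and triglyceride metabolism 2 were higher, among them Scd3 in the entry of Scd2, and 2 lower, with medians of -0.40 and -0.32, and of 6 genes of sterol efflux and its receptors 2 had a value at every stage and neither reached 2-fold.

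The second comparison asked whether loss of emerin changed the level of these genes over the course as a whole. A single gene, Elovl6, which elongates palmitate to stearate, passed the test over the 6 stages, an adjusted p below 0.05 with a mean difference of more than 1.5-fold (limma on the difference within each stage, Benjamini-Hochberg over 11068 genes). It was higher in emerin-null cells, and no gene of the set passed as lower, where 3.35% of all genes passed as higher and 2.21% as lower. The 31 genes had a median difference of -0.03 on the log2 scale, and 10 of them lay above 0, against a median of -0.01 with 5254 of 11068 above 0 for all genes.

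Elovl6 was 2.78, 3.38, 6.04, 2.18, 0.950 and 1.17 FPKM in wildtype and 6.67, 5.85, 7.62, 3.86, 2.26 and 3.29 FPKM in emerin-null cells, higher without emerin at 6 of 6 stages (log2 0.95, SE 0.14, adjusted p = 0.00629). On the log2 scale the difference was, in stage order, 1.23, 0.77, 0.33, 0.80, 1.17 and 1.42. It was smallest at day 1, when the gene stood highest. The differences of days 0 and 1, the stages with the whole gene in the entry, were the lowest of the 6. The gene lies on chromosome 3 from 129532355 to 129638495 (mm10), and its entry covered all of it at days 0 and 1, the 3′ 5.13% to 10.7% in proliferating cells and at days 2 and 3, and the 5′ 68.6% at day 4. The values were low, with wildtype at 0.95 FPKM at day 3.

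**Figure D4:**
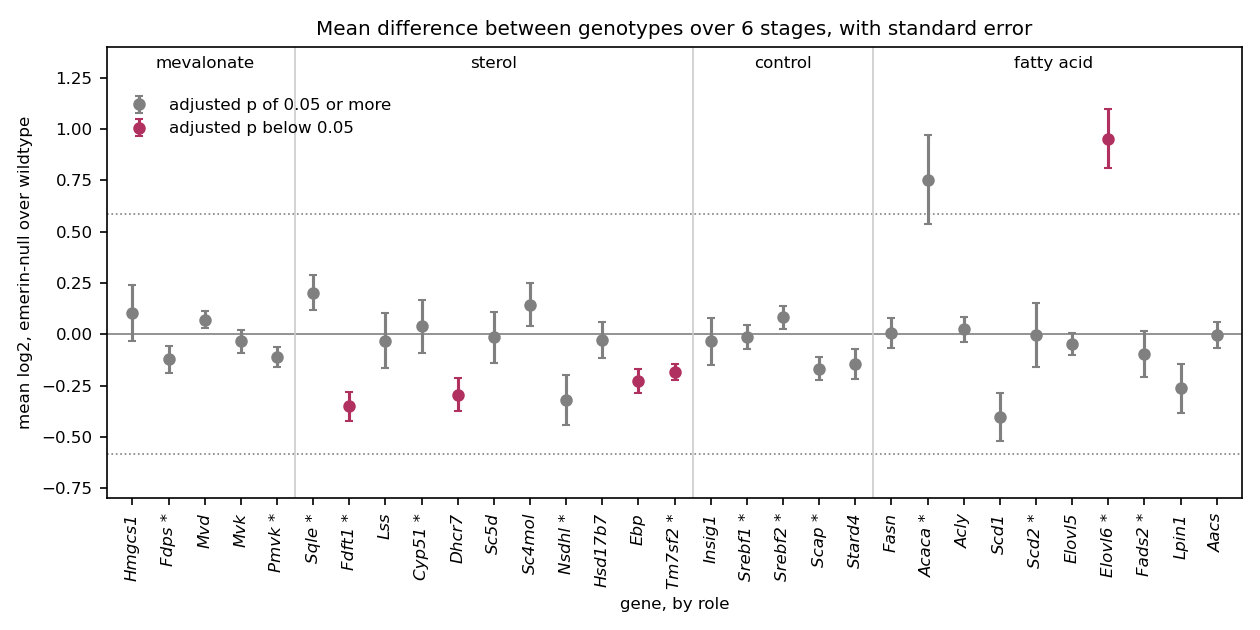
Mean log2 difference in FPKM + 0.1 between emerin-null and wildtype cells over the 6 stages (vertical axis) for the 31 genes ordered by role (horizontal axis), with the standard error of the limma fit as bars. Dotted lines mark 1.5-fold, an asterisk marks genes not separately assembled at every stage, and of the 5 genes with an adjusted p below 0.05 only Elovl6 lies beyond 1.5-fold.

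The other genes with an adjusted p below 0.05 were all lower in emerin-null cells by less than 1.5-fold, and all belonged to the sterol branch. Dhcr7 was lower at 5 of 6 stages (log2 -0.29, SE 0.08, adjusted p = 0.0424), and its values parted most at days 3 and 4, where wildtype reached 101 and 124 FPKM and emerin-null 77.0 and 80.2 FPKM. Ebp was 24.9, 18.6, 43.1, 41.9, 47.5 and 47.5 FPKM in wildtype and 19.5, 15.4, 31.9, 41.4, 43.5 and 42.2 FPKM in emerin-null cells, lower at 6 of 6 stages (log2 -0.23, SE 0.06, adjusted p = 0.0383). Fdft1 with Ctsb (log2 -0.35, SE 0.07, adjusted p = 0.0164) and Tm7sf2 with its neighbours (log2 -0.19, SE 0.04, adjusted p = 0.0215) were also lower at 6 of 6 stages. Neither of these joined entries gave a level of its sterol gene alone. Of all 11068 genes, 2139 had an adjusted p below 0.05 by limma, and 1164 of those had a negative difference. The 5 of 31 genes here, and the 4 of 31 with a negative difference, were shares near those of all 11068 genes.

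Among the genes that did not pass, Scd1 was lower in emerin-null cells at 6 of 6 stages (log2 -0.40, SE 0.12, adjusted p = 0.0554), and the Acaca fragments were higher at 5 of 6 (log2 0.75, SE 0.22, adjusted p = 0.0536). Insig1 (log2 -0.03, SE 0.12, adjusted p = 0.851), Hmgcs1 (log2 0.10, SE 0.13, adjusted p = 0.612) and Sqle (log2 0.20, SE 0.09, adjusted p = 0.139) did not pass either, nor did Srebf1 (log2 -0.01, SE 0.06, adjusted p = 0.882), Srebf2 (log2 0.08, SE 0.06, adjusted p = 0.343) and Fasn (log2 0.01, SE 0.07, adjusted p = 0.961). The 5 cell cycle markers (4 of them at day 4) were, in sum, higher in emerin-null cells at days 2, 3 and 4 (37.1 against 12.6, 27.7 against 8.38 and 23.7 against 6.95 FPKM), and the fibroblast sum was higher there as well (47.1 against 21.7, 57.9 against 14.0 and 53.8 against 10.2 FPKM) and lower at day 0 (5.89 against 23.9 FPKM). Col1a1 made up most of that fibroblast sum, with 51.4 FPKM in emerin-null against 7.61 FPKM in wildtype cells at day 4. Dcn, of the same list, was lower in emerin-null cells at days 2, 3 and 4, with 1.41 against 2.27 FPKM at day 4. Pdgfra, below 1 FPKM, was lower at day 2 and higher at days 3 and 4. Thy1, listed only at day 4, was higher there. The Cd68 entry was higher in emerin-null cells at 6 of 6 stages. The part of these markers in the differences was not tested.

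The third comparison asked whether the difference between genotypes was itself different in differentiation medium (days 1 to 4) and in growth medium (proliferating and day 0). None of the 31 genes passed by limma in either direction. Over all genes, 0.199% passed with the emerin-null value relatively higher in differentiation medium and 0.126% with it relatively lower. Of all 11068 genes, 1454 had an unadjusted p below 0.05 by limma, and of the 31 genes 4 did, a share near that of all genes. Those 4 were Cyp51 at -0.58 (SE 0.18, adjusted p = 0.304), Nsdhl at -0.56 (SE 0.15, adjusted p = 0.281), Insig1 at -0.48 (SE 0.17, adjusted p = 0.345) and Sc5d at -0.51 (SE 0.19, adjusted p = 0.353) on the log2 scale, all with the emerin-null value relatively lower in differentiation medium. The median over the 31 genes was -0.07, against 0.03 over all genes.

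Stage by stage, with 1 value per genotype and no test, proliferating cells held the most genes past 1.5-fold. There 8 of the 31 genes (25.8%) were more than 1.5-fold higher in emerin-null cells and none was lower, where 4.82% of all genes were higher and 5.12% lower. They were Hmgcs1 (0.80 on the log2 scale), Lss (0.67), Cyp51 (0.73), Sc5d (0.67), Sc4mol (0.68), Scd2 (0.66), Elovl6 (1.23) and the Acaca fragment (1.46), and Hmgcs1, Lss, Sc5d and Sc4mol among them were separately assembled. Insig1 at 0.54 and Sqle at 0.52 fell just short of 1.5-fold. The median of the 31 genes was 0.15, with 23 of 31 above 0, against a median of -0.02 with 5010 of 11068 above 0 for all genes. Myog was 744 FPKM in wildtype and 806 FPKM in emerin-null cells at that stage.

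By day 0, still in growth medium, this difference was not seen: Elovl6 alone was higher, at 0.77, Scd1 at -0.95 and the joined Fads entry at -0.63 were lower, and 3.96% of all genes were higher and 6.88% lower. Hmgcs1 at 0.12, Lss at -0.31, Sc5d at -0.02 and Sc4mol at 0.05 were all under 1.5-fold there. The summed level of 8 muscle genes at the same stage was 3169 FPKM in wildtype and 2050 FPKM in emerin-null cells, mostly through Acta1 (1514 and 821 FPKM) and Myh3 (378 and 175 FPKM). Ckm (-1.05 on the log2 scale), Actn2 (-0.77) and Tnnt3 (-0.53) were lower in emerin-null cells as well, while Myod1 (-0.01), Myog (-0.09) and Des (-0.09) hardly differed. Their part in the Scd1 value was not tested.

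At day 1, when the program stood highest, the emerin-null level was below wildtype for all 11 sterol genes, with a median of -0.25. Of all 11068 genes, 4333 lay above 0. The entries of Sqle, Cyp51, Nsdhl, Fdft1 and Tm7sf2 were joined with other genes at this stage. Of the sterol genes only Nsdhl, in an entry with Cetn2, passed 1.5-fold, at -0.77, and the Acaca fragment at 0.92 was higher. Over all genes 4.81% were higher and 5.53% lower, and the median was -0.06. Insig1 was 57.5 FPKM in wildtype and 42.3 FPKM in emerin-null cells at this stage, and Hmgcs1 89.4 and 93.1 FPKM.

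At day 2 Elovl6 was higher at 0.80 and Fdft1 with Ctsb lower at -0.65, where 7.14% of all genes were higher and 4.17% lower. At day 3 Elovl6 at 1.17 was the single gene past 1.5-fold, with 8.85% of all genes higher and 4.32% lower. At day 4 Elovl6 and the Acaca fragment were higher, both at 1.42, while Dhcr7 at -0.62 and the Scd2 entry at -0.64 were lower, and 12.9% of all genes were higher and 4.63% lower. Scd1 stood at -0.58 there, just inside 1.5-fold, with 187 FPKM in wildtype and 125 FPKM in emerin-null cells. Dhcr7 and Scd1, the separately assembled genes with their highest level at day 4 in both genotypes, thus had the lowest ratios of emerin-null to wildtype among the 17 at that stage.

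**Figure D5:**
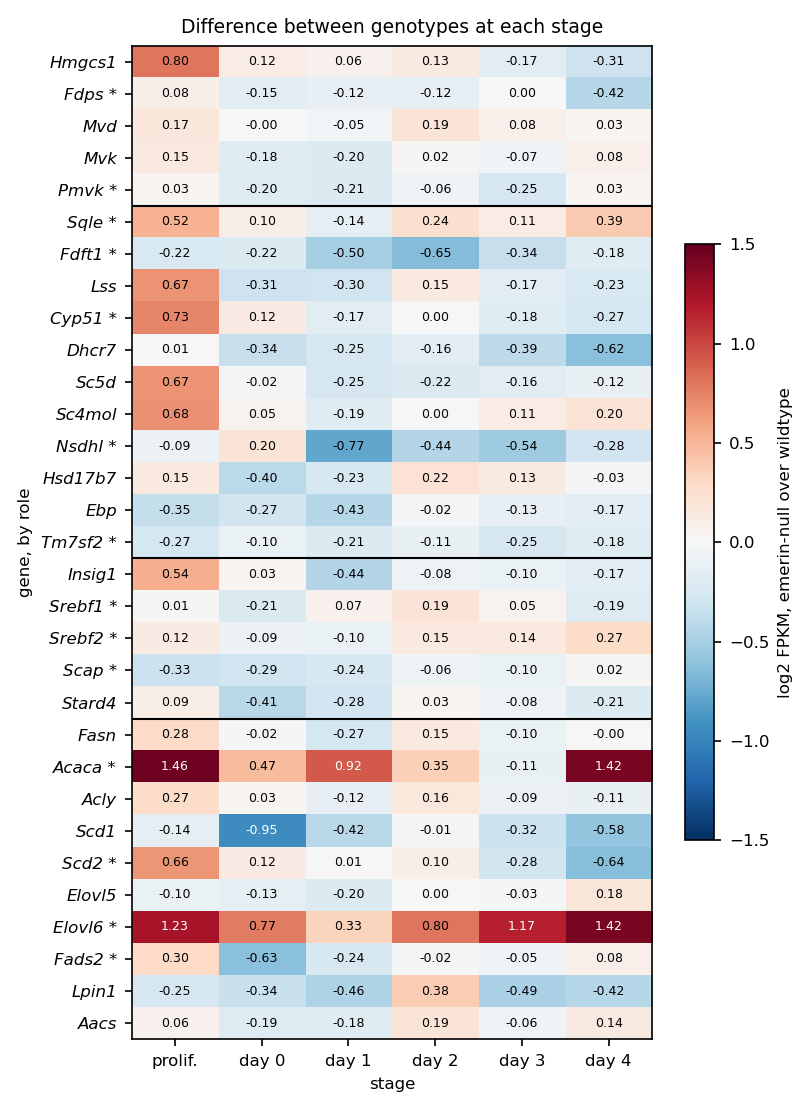
Log2 difference in FPKM + 0.1 between emerin-null and wildtype cells for the 31 genes (vertical axis, ordered by role, asterisk for genes not separately assembled at every stage) at the 6 stages (horizontal axis), with the value printed in each cell and red for higher in emerin-null. The proliferating column holds 8 values above 1.5-fold, Elovl6 is positive at every stage, and Scd1 is negative at every stage.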

How the data were processed

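The authors checked reads with FastQC, mapped them to mm10 with TopHat and compared the genotypes with Cuffdiff, once per stage, and neither the labels nor the methods name a version. The deposited tables give 1 FPKM value per genotype, stage and assembled entry, the unit being read from their layout. They also hold the authors' fold changes, test statistics, p and q values and calls, which were not used. Entries named by a spreadsheet date were left out. For each symbol the usable entry (status OK) with the largest summed FPKM was kept. Entries whose locus also carried the name of another gene were marked. Provisional names (Rik, Gm, LOC and similar) and small RNAs did not count as other genes. The share of a gene that its entry covered was taken from GENCODE M21 annotation.

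Differences of log2(FPKM + 0.1) within a stage were fitted with limma 3.58.1 (R 4.3.3) with an intensity trend, for genes with a mean of at least 1 FPKM, and fold changes understate those of low genes. The 6 stages served as the replicates, so p-values concern these lines over these stages. The script was tested on simulated data. The genes, lists and comparisons were chosen with earlier results of these data known. Genes named with values in every sample were the rate-limiting enzymes, regulators and desaturases, plus up to 6 further genes with the largest change among those called in each comparison; Ebp and values in the closing section were chosen after values were seen. Some genes are not reported here.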

Additional observations from a re-analysis of the deposited data

How the results depend on the processing

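The alternatives were a pseudocount of 1 FPKM, no minimum, summed entries, genes alone at their locus and median-ratio scaling of the samples. Further ones were limma without the trend, other fold marks, and each stage left out. The last, chosen after seeing the data, took only the 17 separately assembled genes. Day 0 to day 1 gave between 13 and 23 genes, so its count of 18 moved by less than 1.5 times under those that apply to it, which are all but limma without the trend and the left-out stages. The count of genes higher over 6 stages, 1, was 2 with genes alone at their locus and with median-ratio scaling. It was 1 to 2 with a stage left out and 0 among the separately assembled genes. The added gene was Acaca (0.75, 0.76, and 0.93 without day 3). Summing all entries brought Acaca to 0.38. Elovl6 lay between 0.72 and 1.08 throughout and was called each time. With a stage left out Hmgcs1 ran from -0.035 to 0.19 and Cyp51 from -0.10 to 0.099, both below 0 only without the proliferating stage, and with summed entries Srebf1 turned to 0.050. At a 2-fold mark the genes that differed between genotypes numbered 2 in proliferating cells, 0 at days 0, 1 and 2, and 2 at day 4. Among the separately assembled genes they numbered 4 in proliferating cells, 1 at day 0, 0 at days 1, 2 and 3, and 1 at day 4, and the changes from proliferating to day 0 and from day 3 to day 4 fell to 0. With genes alone at their locus those 2 steps also gave 0, and days 1 and 2 gave 1 gene each. Summed entries gave 0 at day 1 and 3 from day 1 to day 2. At a 1.5-fold mark the later steps gave 6, 6 and 5 genes, and median-ratio scaling gave 2 from day 3 to day 4. Fewer genes or another mark account for these by construction, and otherwise the cause was not tested. The fit takes differences within a stage, so the genotypes were paired by stage throughout. The unknown depth limits what low genes such as Elovl6 and Lpin1 can show.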

Other observations

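Of the lipid genes next to this pathway, 5 are given here, of which Cebpa passed the test over the 6 stages. Dgat2, which makes triglyceride from diglyceride, was 6.11, 6.86, 9.44, 11.1, 8.85 and 8.03 FPKM in wildtype and 7.02, 5.66, 16.0, 24.2, 18.6 and 14.5 FPKM in emerin-null cells, higher without emerin at days 1, 2, 3 and 4 (log2 0.62, SE 0.19, adjusted p = 0.0647, limma), so it did not pass. Thrsp, a lipogenic nuclear protein, was listed from day 2 on, at 0.176, 0.641 and 1.48 FPKM in wildtype and 1.00, 3.63 and 8.14 FPKM in emerin-null cells. Cebpa, a lipogenic transcription factor, was 13.3, 22.8, 6.73, 2.32, 1.62 and 2.74 FPKM in wildtype and 6.10, 11.0, 3.59, 1.34, 1.06 and 2.33 FPKM in emerin-null cells, lower at 6 of 6 stages (log2 -0.77, SE 0.12, adjusted p = 0.00719). Nr1h2, a receptor for oxidised sterols, was lower at 6 of 6 stages as well, by less than 1.5-fold (log2 -0.28, SE 0.04, adjusted p = 0.00757), and Acss2, which makes acetyl-CoA from acetate, was 2.00, 1.73, 11.1, 13.8, 55.3 and 51.0 FPKM in wildtype and 1.90, 1.46, 6.72, 15.2, 34.4 and 37.7 FPKM in emerin-null cells (log2 -0.33, SE 0.12, adjusted p = 0.0998). The Acss2 entry was joined with Gss at days 1, 2, 3 and 4 but not in growth medium, so its change between stages can reflect a change of entry.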
